A study of Saccharomyces cerevisiae with 24 samples.

Results

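The results concern 10 genes of the iron economy of Saccharomyces cerevisiae. They are the transcription factor genes AFT1 and AFT2, the genes GRX3 and GRX4 for the glutaredoxins that restrain those factors, the mRNA decay factor gene TIS11, the mitochondrial carrier genes MRS4 and MRS3, the heme oxygenase gene HMX1, the small-protein gene LSO1 and the vacuolar iron transporter gene CCC1. They were chosen by name with earlier results of these data known, so their counts and medians beside those of all tested genes are descriptions. All 10 carried values, and all 10 were among the 4888 genes tested out of 6304 with values. LSO1 passed the filter on low values through starved WT and D87E, since its mRNA was at most 1.31 RPKM in the other groups. A gene that enters in this way has to differ between groups, so its fitted values are descriptions, and counts and medians are also given for the other 9 genes.

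RNA-seq and ribosome profiling were done on the same samples of CEN.PK yeast, in 12 libraries each. Strains had wild-type DIM1 (WT) or the dim1 allele E85Q or D87E. DIM1 encodes the enzyme that dimethylates adenosines of 18S rRNA, and the labels do not state what either allele does to that activity. Cells grew to log phase in sulfur-free medium with 1 mM methionine, or were then starved for 2 h in sulfur-free medium, which left them without methionine. Each of the 6 groups held 2 samples, from the numbered strains (isolates) 172 and 600 for WT, 623 and 625 for E85Q and 887 and 888 for D87E; below, isolates are given in that order.

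Aft1 and Aft2 switch on the genes of iron uptake when iron-sulfur clusters run low. When clusters are plentiful, Grx3 and Grx4 pass that signal to Aft1 and Aft2 together with Bol2, and the factors leave their target promoters. Cth2, the protein of TIS11, is made under iron shortage and binds AU-rich elements in mRNAs of iron-using proteins, which then decay. Mrs3 and Mrs4 carry iron into mitochondria, Hmx1 breaks down heme and frees its iron, and Ccc1 moves iron into the vacuole. The transcription factor Yap5 raises expression of CCC1 at high iron.

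Levels are RPKM (reads scaled to gene length in kilobases and to library depth), the unit in which the authors deposited them. Changes are differences of log2(RPKM + 1), fitted with limma across all tested genes, and a change is called at a Benjamini-Hochberg adjusted p below 0.05. Translational efficiency (TE) is the log2 footprint value minus the log2 mRNA value of the same sample. The reads recovered from the RPKM steps numbered 24.3 to 32.3 M (1e6) per mRNA library. Footprint libraries held 21.4 to 27.3 M in starved WT and D87E, 39.2 to 47.0 M in starved E85Q and 49.1 to 81.4 M with methionine. The median tested gene itself rose on starvation by 0.40 in WT, 0.14 in E85Q and 0.41 in D87E in log2 mRNA, so values relative to that median (centred) are given where they alter a call. RPKM is relative to the other reads of a library, so a change in the total RNA or in the number of ribosomes per cell cannot be seen in it.

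In starved WT cells 8 of the 10 mRNAs rose and none fell, where 60.2% of all tested genes rose and 26.7% fell. On centring MRS3 (-0.37) and CCC1 (-0.31) were called as well, both lower. The median change of the 10 was 1.36, and 1.16 without LSO1, against 0.40 over all tested genes. In D87E 9 rose (60.7% of all genes rose, 25.5% fell), with a median of 1.48, and 1.17 without LSO1, against 0.41. In E85Q 8 rose and 1 fell (46.5% and 30.3% of all genes), with a median of 0.38, and 0.41 without LSO1, against 0.14. Footprints rose for 7 and fell for 1 of the 10 in WT (51.3% and 32.1% of all genes), rose for 6 and fell for 1 in E85Q (44.8% and 30.6%), and rose for 7 and fell for 1 in D87E (47.3% and 35%). LSO1 was 1 of the rises in WT and D87E in both assays and was not called in E85Q. A high share of all genes changed in each strain, so the number of members that changed says little by itself, and the sizes of the changes are given gene by gene.

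**Figure D1:**
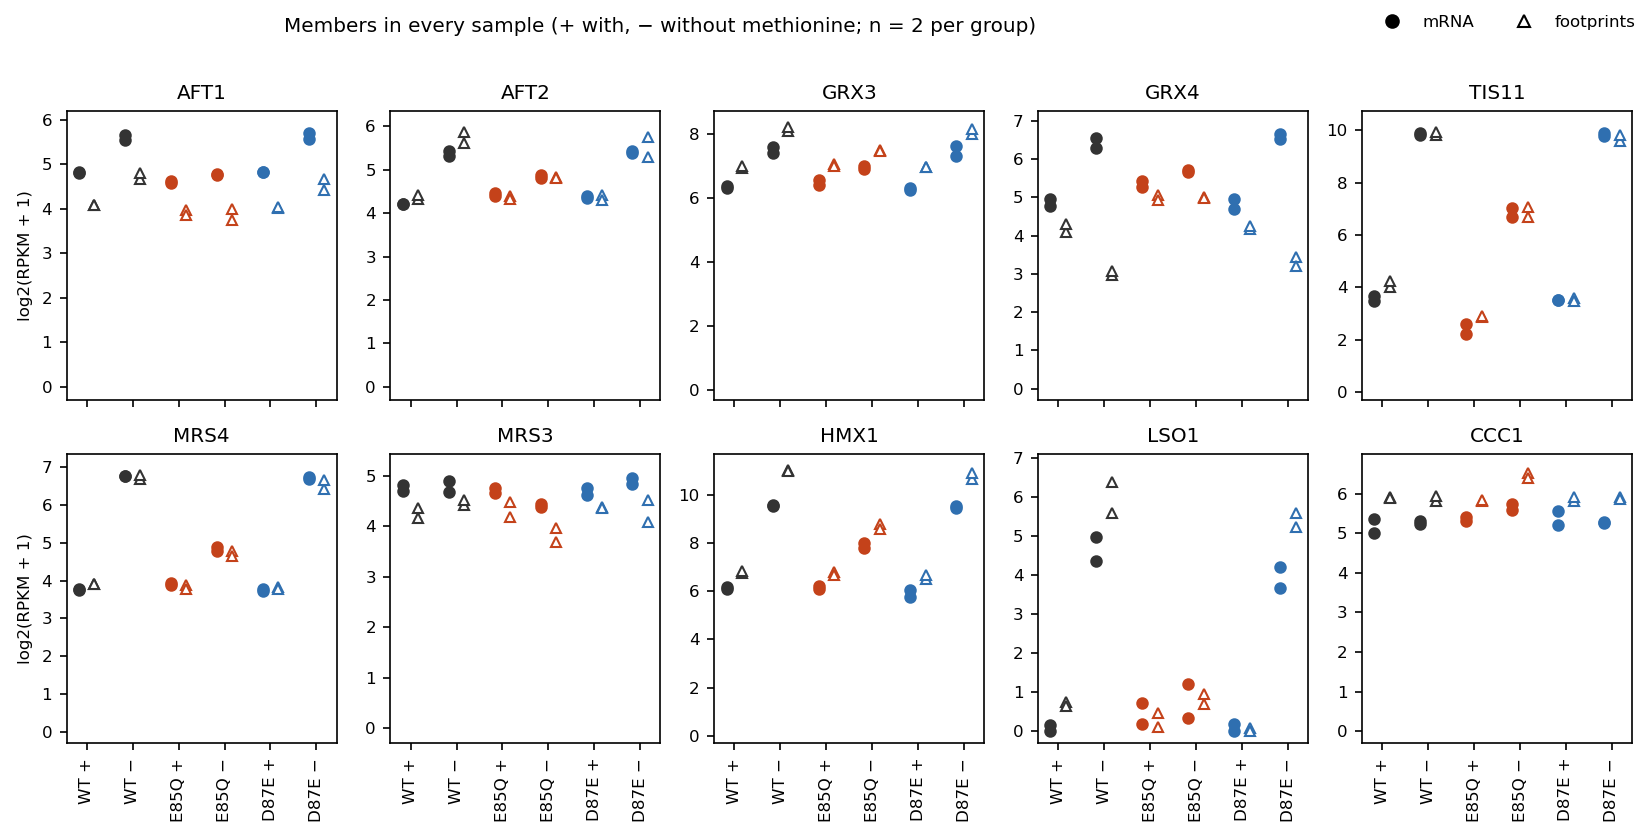
Level of each of the 10 genes in every sample, as log2(RPKM + 1) on the vertical axis, for mRNA (filled circles) and footprints (open triangles) in WT (dark), E85Q (red) and D87E (blue) with (+) and without (−) methionine. In starved cells the E85Q points of TIS11, MRS4, HMX1 and LSO1 lie below those of WT and D87E in both assays, and the footprints of GRX4 lie above them.

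AFT1 (YGL071W, chromosome VII, 372012 to 374084 in RefSeq coordinates of the sacCer3 build) encodes the main activator of iron uptake. Its mRNA stood at 27.3 and 26.8 RPKM in WT with methionine and at 49.7 and 46.0 RPKM without. In E85Q it was 23.8 and 23.1 RPKM with methionine and 26.3 and 26.7 RPKM without, and in D87E it went from 27.3 and 27.4 to 51.0 and 46.8 RPKM. Starved E85Q thus stayed below every WT and D87E sample, those with methionine included. The log2 mRNA rise was 0.80 in WT and 0.81 in D87E (SE 0.06 each, adjusted p = 2.8e-07 and 2.5e-07). In E85Q it was 0.17 (SE 0.06, adjusted p = 0.021), a call that was lost on centring (0.08) and without 625 with methionine (0.15), 623 starved (0.18) or 625 starved (0.16).

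AFT1 footprints went from 16.0 and 16.1 to 24.4 and 27.0 RPKM in WT and from 15.2 and 15.4 to 20.4 and 24.5 RPKM in D87E. In E85Q they stood at 14.8 and 13.6 RPKM with methionine and 15.0 and 12.5 RPKM without, which overlap. Their log2 rise was 0.65 in WT and 0.52 in D87E (SE 0.10), and the estimate in E85Q was -0.04 (SE 0.10, adjusted p = 0.71). The starvation response of E85Q differed from that of WT by -0.63 in mRNA (SE 0.08, adjusted p = 0.00022) and by -0.69 in footprints (SE 0.15, adjusted p = 0.0053).

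AFT2 (YPL202C, chromosome XVI, 168088 to 169338), the paralog with overlapping targets, went from 17.5 RPKM in both WT isolates to 42.0 and 38.8 RPKM in mRNA. In D87E it went from 19.3 and 20.0 to 40.5 and 42.3 RPKM, and in E85Q from 20.0 and 21.1 to 28.4 and 26.9 RPKM, with no overlap between media in any strain. The log2 rises were 1.16, 1.04 and 0.41 in WT, D87E and E85Q (SE 0.06 each; adjusted p at most 8.7e-05). AFT2 footprints rose by 1.37 and 1.15 in WT and D87E and by 0.45 in E85Q (SE 0.13), the last with adjusted p = 0.011 and not called without 625 with methionine (0.42) or starved 623 (0.43). The TE changes of AFT2 in WT and D87E, 0.21 and 0.11 (SE 0.14, adjusted p = 0.24 and 0.54), were called on centring (0.35 and 0.36, adjusted p = 0.048 and 0.045). With methionine, AFT1 mRNA exceeded AFT2 mRNA 1.56- and 1.54-fold in WT, and after starvation 1.18-fold in both isolates. In footprints AFT1 was the lower of the pair in all 12 samples, at 0.79 to 0.846 of AFT2 in WT with methionine and 0.474 to 0.508 without.

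GRX3 and GRX4 encode the cytosolic monothiol glutaredoxins, which are functionally redundant for Aft1 control, and they took different courses. GRX3 (YDR098C, chromosome IV, 644178 to 644930) rose in mRNA and in footprints together, whereas the WT and D87E footprints of GRX4 (YER174C, chromosome V, 538434 to 539168) fell while its mRNA rose. In E85Q the footprints of GRX4 did not move detectably.

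GRX3 mRNA went from 82.3 and 77.7 to 168 and 192 RPKM in WT, from 93.9 and 83.7 to 127 and 118 RPKM in E85Q and from 79.2 and 74.8 to 156 and 195 RPKM in D87E. Its footprints went from 122 and 128 to 270 and 295 RPKM in WT, from 132 and 128 to 181 and 174 RPKM in E85Q and from 125 in both isolates to 255 and 282 RPKM in D87E. The 2 media did not overlap in either assay. The rises were 1.16, 0.47 and 1.17 in mRNA (SE 0.11) and 1.17, 0.45 and 1.1 in footprints (SE 0.07) for WT, E85Q and D87E. The TE of GRX3 changed by 0.02, -0.02 and -0.07 (SE 0.09), none of them called.

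GRX4 mRNA went from 30.3 and 26.6 to 93.3 and 77.4 RPKM in WT and from 29.8 and 24.7 to 101 and 91.5 RPKM in D87E, log2 rises of 1.55 and 1.79 (SE 0.11, adjusted p = 2.9e-07 and 1e-07). Over the same starvation its footprints went down from 16.2 and 18.8 to 6.83 and 7.36 RPKM in WT and from 17.1 and 17.9 to 9.84 and 8.28 RPKM in D87E. That was a log2 fall of -1.19 and -0.88 (SE 0.09, adjusted p = 7.6e-07 and 7.3e-06). In E85Q, GRX4 mRNA went from 42.0 and 37.6 to 51.2 and 49.9 RPKM, and footprints stood at 32.2 and 29.7 RPKM with methionine and 31.4 and 30.6 RPKM without. The E85Q footprint change was 0.00 (SE 0.09, adjusted p = 0.97). Its mRNA rise of 0.34 (SE 0.11, adjusted p = 0.019) lost its call on centring (0.25) and without 625 with methionine (0.26), 623 starved (0.32) or 625 starved (0.36). The fewest reads behind GRX4 in any footprint library were 107.

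The footprints per mRNA of GRX4, as a ratio of RPKM, were 0.533 and 0.707 in WT with methionine and 0.0732 and 0.0951 without. D87E went from 0.574 and 0.724 to 0.0976 and 0.0905, and E85Q from 0.766 and 0.790 to 0.613 and 0.614. The 2 starved E85Q samples lay within the range of the methionine samples of WT and D87E, far above the other starved samples. TE fell by -2.74 in WT and -2.67 in D87E (SE 0.15, adjusted p = 6.2e-07 and 5.8e-07), the 11th and 12th place from the lowest among 4888 genes. In E85Q the TE change was -0.34 (SE 0.15, adjusted p = 0.21), in place 312 from the lowest. Starved E85Q exceeded starved WT by 2.72 in TE (SE 0.15, adjusted p = 5.2e-06), and the starvation responses differed by 2.40 (SE 0.21, adjusted p = 0.00068). The D87E response differed from that of WT by 0.07 (SE 0.21, adjusted p = 0.92).

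**Figure D2:**
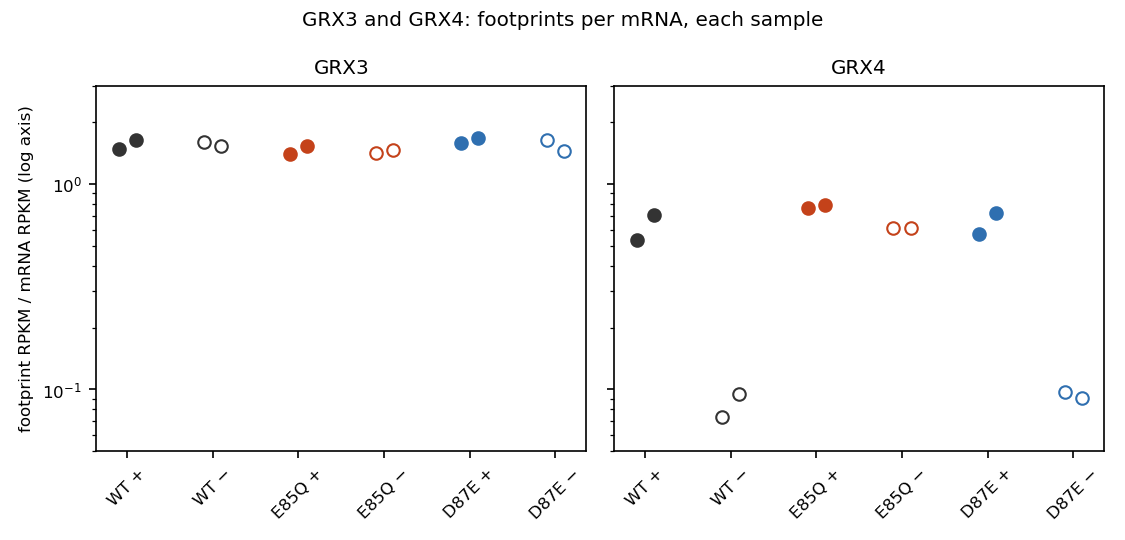
Footprint RPKM divided by mRNA RPKM (vertical log axis) of GRX3 and GRX4 in each sample of the 6 groups, filled with methionine (+) and open without (−). GRX3 lies between 1.40 and 1.67 in all 12 samples, while GRX4 drops to between 0.0732 and 0.0976 in starved WT and D87E and stays at 0.613 and 0.614 in starved E85Q.

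The balance of the glutaredoxin pair in footprints shifted with starvation. GRX3 footprints exceeded GRX4 footprints 7.52- and 6.80-fold in WT with methionine and 39.6- and 40-fold without. The ratio was 4.09 and 4.31 in E85Q with methionine and 5.77 and 5.69 without, against 7.30 and 6.98 rising to 25.9 and 34.1 in D87E. In mRNA the ratio stayed between 1.55 and 3.03 across the 12 samples. How reads that fit both paralogs were assigned is not given in the sources used here, and the share of such reads was not tested.

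TIS11 (YLR136C, chromosome XII, 415801 to 416658) had the largest mRNA rise of the 10 genes in each strain on the log2(RPKM + 1) scale, which understates that of LSO1, at 6.28 in WT, 4.44 in E85Q and 6.33 in D87E (SE 0.13). Its mRNA stood at 10.2 and 11.8 RPKM in WT with methionine and at 946 and 911 RPKM without, and in D87E at 10.4 RPKM in both isolates and then 888 and 950 RPKM. E85Q samples were below those of the other strains in each medium, at 5.13 and 3.67 RPKM with methionine and 130 and 102 RPKM without. Starved E85Q therefore reached 12.5% of the starved WT level, and E85Q with methionine had 39.9% of the WT level. TIS11 mRNA was lower in E85Q than in WT by -1.17 with methionine (SE 0.13, adjusted p = 0.0012) and by -3.0 without (SE 0.13, adjusted p = 2e-07). Footprints differed by -1.25 and -2.99 in the same comparisons (SE 0.13, adjusted p = 0.001 and 5.2e-07).

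TIS11 footprints went from 15.3 and 17.9 to 902 and 986 RPKM in WT, from 6.27 and 6.47 to 134 and 103 RPKM in E85Q, and from 11.3 and 10.2 to 768 and 909 RPKM in D87E. The log2 footprint rise was 5.75 in WT, 4.01 in E85Q and 6.16 in D87E (SE 0.13). The E85Q response was smaller than that of WT by -1.84 in mRNA (SE 0.19, adjusted p = 8.4e-05) and by -1.75 in footprints (SE 0.18, adjusted p = 0.00028). TE fell in WT by -0.52 (SE 0.13, adjusted p = 0.0055), and estimates in E85Q and D87E were -0.43 and -0.18 (SE 0.13, adjusted p = 0.071 and 0.25).

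Of the mitochondrial carriers, MRS4 (YKR052C, chromosome XI, 532550 to 533464), a known Aft1 target, moved and MRS3 (YJL133W, chromosome X, 160619 to 161563) did so little or not at all. MRS4 mRNA went from 12.5 and 12.6 to 108 and 107 RPKM in WT, from 14.4 and 13.7 to 28.5 and 26.4 RPKM in E85Q and from 12.7 and 12.2 to 102 and 105 RPKM in D87E. Its log2 rise was 3.0 in WT, 0.92 in E85Q and 2.96 in D87E (SE 0.05), and the E85Q response was smaller than that of WT by -2.08 (SE 0.08, adjusted p = 2.6e-07). Footprints rose by 2.84, 0.88 and 2.74 (SE 0.09), with an E85Q minus WT difference in response of -1.95 (SE 0.12, adjusted p = 5.7e-05). The TE of MRS4 fell in D87E by -0.22 (SE 0.08, adjusted p = 0.034); the centred value was 0.03, and the call was lost without either D87E sample with methionine (-0.22) or without starved 887 (-0.12).

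MRS3 mRNA stayed between 19.9 and 30.3 RPKM in the 12 samples. The change was 0.03 in WT (SE 0.09, adjusted p = 0.74), and relative to the median gene MRS3 mRNA was lower there (centred -0.37, adjusted p = 0.0042). In E85Q it fell by -0.30 (SE 0.09, adjusted p = 0.0079), and without 625 with methionine the value was -0.25 and no longer called. The D87E rise of 0.21 (SE 0.09, adjusted p = 0.04) was lost with isolates as a replicate block (adjusted p = 0.071), without D87E 887 in either medium (0.15 and 0.14) and without either starved E85Q sample, and reversed to -0.19 on centring. Footprints of MRS3 fell in E85Q by -0.51 (SE 0.15, adjusted p = 0.011; not called without 623 with methionine, -0.36, or without starved 625, -0.37), and were not called in WT (0.22) or D87E (-0.08). Starvation turned the order of the pair round in WT mRNA, from 0.503 and 0.462 RPKM of MRS4 per RPKM of MRS3 to 3.75 and 4.34. D87E went from 0.537 and 0.471 to 3.37 and 3.83, and E85Q from 0.589 and 0.521 to 1.43 and 1.27.

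HMX1 (YLR205C, chromosome XII, 552724 to 553677) rose in mRNA and further in footprints. Its mRNA went from 67.9 and 71.0 to 760 and 730 RPKM in WT, from 73.2 and 66.5 to 253 and 218 RPKM in E85Q and from 52.6 and 65.3 to 688 and 747 RPKM in D87E. HMX1 footprints went from 108 and 112 to 2061 and 2030 RPKM in WT, from 110 and 101 to 437 and 382 RPKM in E85Q and from 89.4 and 100.2 to 1627 and 1898 RPKM in D87E. Starved E85Q lay between the 2 media of the other strains, without overlap. The log2 rises were 3.40, 1.74 and 3.59 in mRNA (SE 0.11) and 4.21, 1.95 and 4.2 in footprints (SE 0.10).

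The TE of HMX1 rose by 0.80 in WT and 0.61 in D87E (SE 0.08, adjusted p = 3.6e-05 and 0.00013), opposite in direction to that of GRX4. As a ratio of RPKM, footprints per mRNA went from 1.58 in both WT isolates to 2.71 and 2.78. In E85Q the TE change was 0.21 (SE 0.08, adjusted p = 0.16), and it differed from that of WT by -0.59 (SE 0.12, adjusted p = 0.0099). The responses of E85Q and WT differed by -1.67 in mRNA (SE 0.15, adjusted p = 5e-05) and by -2.26 in footprints (SE 0.15, adjusted p = 5.7e-05).

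LSO1 (YJR005C-A, chromosome X, 448477 to 448758), a gene of a small protein that is induced by iron deprivation in yeast, was near 0 with methionine in all strains. Its mRNA was 0.125 and 0 RPKM in WT with methionine and 19.7 and 30.7 RPKM without, and 0.133 and 0 RPKM and then 11.8 and 17.4 RPKM in D87E. E85Q had 0.656 and 0.147 RPKM with methionine and 0.269 and 1.31 RPKM without, which overlap. Summed over isolates, the recovered reads went from 1 to 392 in WT, from 1 to 205 in D87E and from 6 to 12 in E85Q. Scaled to depth, this is a ratio of 358 in WT (95% exact interval 64 to 14200), 219 in D87E (38.9 to 8710) and 1.91 in E85Q (0.663 to 6.2), intervals that cover counting error only. A level of 3 reads corresponds to 0.148 to 0.564 RPKM for this short gene.

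LSO1 footprints went from 0.677 and 0.560 to 47.5 and 82.3 RPKM in WT, from 0.0608 and 0 to 37.0 and 47.3 RPKM in D87E and from 0.0821 and 0.383 to 0.617 and 0.945 RPKM in E85Q. Summed footprint reads went from 17 to 769 in WT, from 1 to 518 in D87E and from 6 to 17 in E85Q. The depth-scaled footprint ratio was 107 in WT (95% exact interval 66.4 to 185), 1570 in D87E (281 to 62300) and 3.35 in E85Q (1.26 to 10.4). These intervals too cover counting error only and leave out the spread between isolates. On the log2(RPKM + 1) scale starved E85Q minus starved WT was -3.90 in mRNA (SE 0.36) and -5.16 in footprints (SE 0.23), given with no test. The fitted TE rise in WT, 0.70 (SE 0.25), and that in D87E, 1.53 (SE 0.25), are likewise descriptions. The WT value became -0.91 at a pseudocount of 0.1 and lost its call with isolates as a replicate block. The WT call was also lost without any one WT sample (0.62 to 0.78), and the D87E rise was not called at a pseudocount of 0.1 (1.81). With so few reads in methionine, the size of the TE change of LSO1 was not measurable at this depth.

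CCC1 (YLR220W, chromosome XII, 576825 to 577793) had its highest levels, in mRNA and footprints, in starved E85Q. Its mRNA was 39.9 and 31.1 RPKM in WT with methionine and 36.9 and 38.7 RPKM without, 41.6 and 38.6 then 52.3 and 47.3 RPKM in E85Q, and 45.9 and 36.2 then 37.4 and 38.1 RPKM in D87E. CCC1 footprints were 59.4 and 58.5 then 55.2 and 60.9 RPKM in WT, 55.0 and 56.0 then 90.7 and 83.6 RPKM in E85Q, and 55.5 and 59.0 then 59.9 and 57.7 RPKM in D87E. Only the 2 starved E85Q samples left the range of 55.0 to 60.9 RPKM that held the other 10. Footprints rose in E85Q by 0.64 (SE 0.07, adjusted p = 1.3e-05), against -0.02 in WT and 0.04 in D87E (SE 0.07, adjusted p = 0.76 and 0.61). The E85Q response exceeded that of WT by 0.66 (SE 0.10, adjusted p = 0.0011).

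The CCC1 mRNA rise in E85Q was 0.30 (SE 0.12, adjusted p = 0.044), and it was lost on centring (0.21), without the filter (0.30) without any one E85Q sample (0.23 to 0.37) and without either starved WT sample (0.30). Starved E85Q exceeded starved WT by 0.39 in mRNA (SE 0.12, adjusted p = 0.02); leaving out either starved WT sample (0.35 without 172, 0.42 without 600) or starved E85Q 623 (0.32) ended this call. Relative to the median gene, CCC1 mRNA was lower on starvation in WT (centred -0.31, adjusted p = 0.025) and in D87E (centred -0.51, adjusted p = 0.0015), and CCC1 footprints were lower in WT (centred -0.24, adjusted p = 0.01), although none of these was called without centring. The TE change of CCC1 in D87E, 0.15 (SE 0.14, adjusted p = 0.38), was called on centring (0.40, adjusted p = 0.028).

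**Figure D3:**
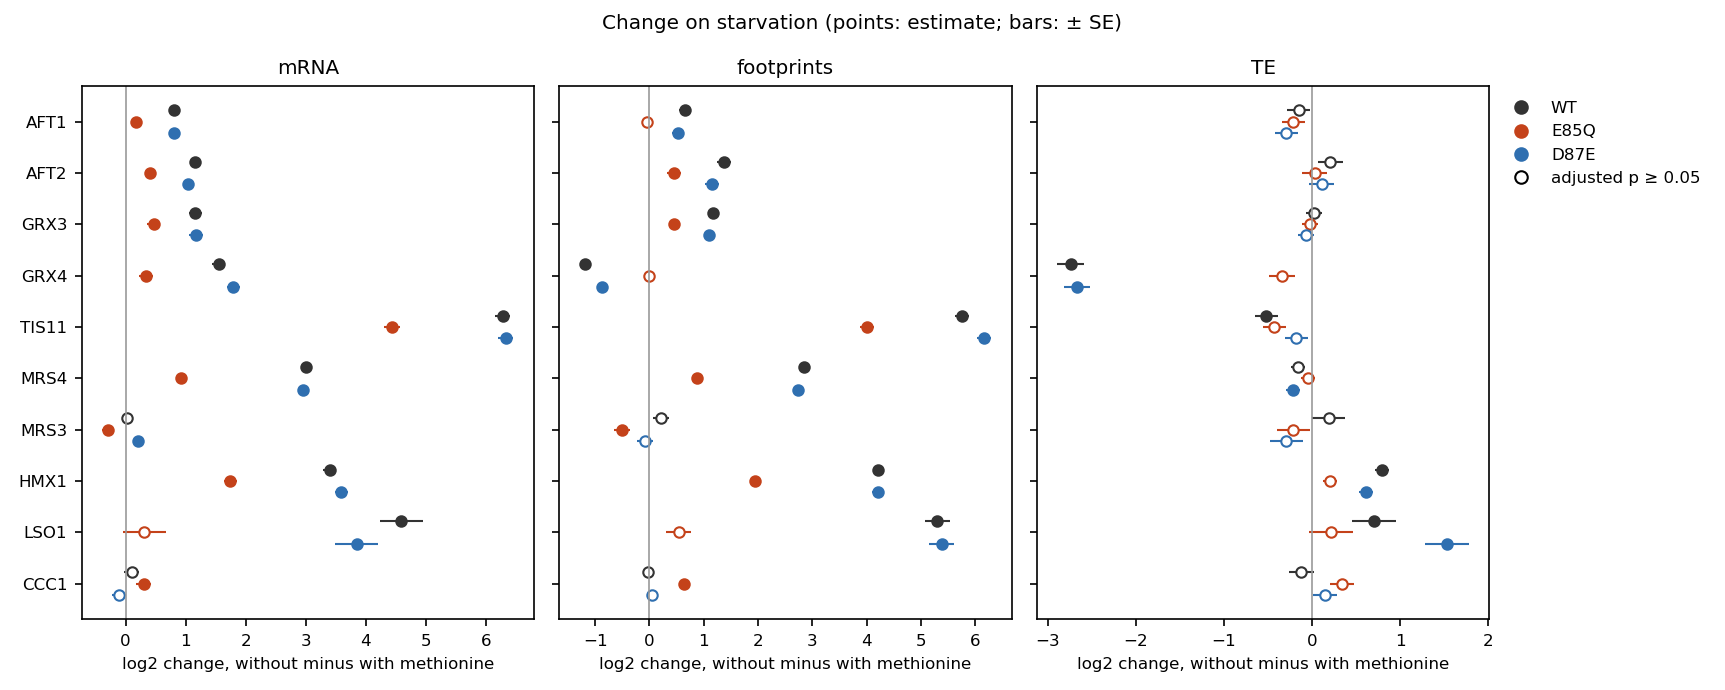
Fitted log2 change on starvation (horizontal axis, without minus with methionine; bars are SE, n = 2 samples per group) for mRNA, footprints and TE of the 10 genes in WT, E85Q and D87E. Open points have an adjusted p of 0.05 or more. The TE of GRX4 is the one far to the left, at -2.74 in WT and -2.67 in D87E, with E85Q at -0.34.

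Comparing E85Q with WT asks whether the allele alters these genes in each medium; both mutants are compared with the same WT samples. With methionine 4 of the 10 mRNAs differed (28.6% of all genes). These were AFT1 (-0.20, SE 0.06), AFT2 (0.22, SE 0.06), GRX4 (0.47, SE 0.11) and TIS11 (-1.17, SE 0.13). The AFT1 and AFT2 calls were lost without any one of the 4 samples compared, with values of -0.18 to -0.22 and 0.18 to 0.26. The GRX4 call was lost without WT 600 (0.38) or E85Q 623 (0.39), and the AFT2 call also on centring (0.09). In footprints GRX4 was higher in E85Q by 0.79 (SE 0.09, adjusted p = 0.0018) and TIS11 lower, and no other member was called (7.61% of all genes). In TE limma called 0 of the 10, with 2 at an unadjusted p below 0.05 (0.143% of all genes were called).

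Without methionine all 10 mRNAs differed between E85Q and WT, 9 lower and CCC1 higher, where 45.5% of all genes were lower and 15.7% higher. Of the 9 genes other than LSO1, 8 were lower and 1 higher. The median difference of the 10 was -0.78, and -0.74 without LSO1, against -0.17 over all tested genes; MRS3 (-0.37) lost its call on centring (-0.19), and in footprints (-0.65) without starved E85Q 625 (-0.51). In footprints 8 were lower and 2, GRX4 and CCC1, were higher (32.5% and 20.6% of all genes), and without LSO1 7 were lower and 2 higher. GRX4 footprints were 1.98 higher in starved E85Q (SE 0.09, adjusted p = 5.7e-07) while its mRNA was 0.74 lower, a difference of -0.74 (SE 0.11, adjusted p = 0.00033). In TE 4 members differed (36.1% of all genes): GRX4 was higher, and HMX1 (-0.66, SE 0.08), LSO1 (-1.26, SE 0.25) and AFT2 (-0.40, SE 0.14, adjusted p = 0.049) were lower. Without LSO1, 1 was higher and 2 were lower. The AFT2 value was -0.22 without starved WT 600, and its call was lost under 11 of the alternatives tried. The LSO1 value rests on 12 mRNA reads and 17 footprint reads in starved E85Q, where footprints per mRNA were 2.30 and 0.724, against 2.42 and 2.68 in starved WT. At a pseudocount of 0.1 neither LSO1 (-1.08) nor AFT2 was called, which left 2 of the 4.

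The starvation responses of E85Q and WT differed in mRNA for 9 of the 10 genes, and for 8 of the 9 other than LSO1. Every called difference, E85Q minus WT, was negative (48.6% of all genes were called negative and 11.8% positive). For MRS3 this was a fall in E85Q (-0.30) beside 0.03 in WT, and for the others a smaller positive estimate in E85Q. CCC1 was not called (0.20, SE 0.17), though its centred difference was 0.52 (adjusted p = 0.021). The MRS3 difference (-0.33, SE 0.12, adjusted p = 0.035) was lost with the replicate block (adjusted p = 0.065) and on centring (-0.02), and without WT 172 with methionine (-0.27), starved WT 172 (-0.23), E85Q 625 with methionine (-0.28) or either starved E85Q sample (-0.31 and -0.36). That of GRX3 (-0.69) was lost on centring (-0.38, adjusted p = 0.052). In footprints the difference was negative for 8 genes and positive for 2 (27.7% and 13.8% of all genes). Without LSO1 it was negative for 7 and positive for 2. The positive ones were GRX4 and CCC1, and for GRX4 it was a fall in WT (-1.19) beside 0.00 in E85Q. The MRS3 difference was -0.73, with 0.22 in WT (not called) and -0.51 in E85Q. Its call was lost without WT 172 with methionine (-0.62), starved WT 600 (-0.68), E85Q 623 with methionine (-0.58) or starved E85Q 625 (-0.59). TE responses differed for GRX4 and HMX1 (21.9% of all genes). On starvation itself TE changed for 4 members in WT, GRX4 and TIS11 down and HMX1 and LSO1 up (53.3% of all genes), for 4 in D87E, GRX4 and MRS4 down and HMX1 and LSO1 up (60.9%), and for 0 in E85Q by limma, with 4 at an unadjusted p below 0.05 (6.2%). Without LSO1, whose TE rise was not called at a pseudocount of 0.1 in either strain, 3 members changed in WT and 3 in D87E.

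D87E and WT were not separated by limma for any of the 10 genes in mRNA, with 0% of all tested genes called in either medium or in the response. Estimates ran from -0.24 to 0.21 with methionine (1 member at an unadjusted p below 0.05) and from -0.74 to 0.17 without (0 members), with SEs of 0.05 for MRS4 to 0.36 for LSO1. In footprints 0 members were called with methionine (2 at an unadjusted p below 0.05; 0.0614% of all genes called), 0 without (2; 0%; 3 called without starved D87E 888) and 0 in the response (1; 0%). GRX4 footprints in starved D87E, at 9.84 and 8.28 RPKM, stood above the WT values of 6.83 and 7.36 RPKM, a difference of 0.31 (SE 0.09, adjusted p = 0.2). With methionine TIS11 footprints in D87E, at 11.3 and 10.2 RPKM, stood below the WT values of 15.3 and 17.9 RPKM. That difference was -0.58 (SE 0.13, adjusted p = 0.46), and in TE it was -0.51 (SE 0.13, adjusted p = 0.47). In TE 0 members were called with methionine (2 at an unadjusted p below 0.05; 0.143% of all genes called), 0 without (0; 0.0205%) and 0 in the response (1; 0%).

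Other genes of iron metabolism were counted from lists that are not independent of earlier results on these data. Their mRNA counts stand beside 60.2%, 46.5% and 60.7% of all tested genes that rose in WT, E85Q and D87E, 26.7%, 30.3% and 25.5% that fell, and medians of 0.40, 0.14 and 0.41. For starved E85Q against starved WT the background is 45.5% lower and 15.7% higher, with a median of -0.17. Of 17 genes of iron uptake at the cell surface and its copper supply, 11 were tested, and all 11 rose in mRNA in WT, E85Q and D87E, with medians of 3.83, 1.84 and 3.74 (0.40, 0.14 and 0.41 over all tested genes). In starved E85Q 10 of the 11 were lower than in WT and 1 was higher (median -2.40). With methionine 8 of the 11 were already lower in E85Q and none was higher (median -0.47, against 0.11 over all tested genes). Of all tested genes, 28.6% differed in that comparison. The filter on mean RPKM can keep a gene through its starved samples alone, as for LSO1. The counts and medians of these 11 are therefore descriptions, and how many entered in that way was not tested. FIT2 and FIT3, for cell wall mannoproteins that retain siderophore iron, rose by 6.78 and 6.42 in WT, 2.20 and 2.21 in E85Q and 6.54 and 6.18 in D87E. FTR1, the iron permease gene, rose by 2.44, 1.29 and 2.49. ATX1, which encodes the copper chaperone, rose by 0.55 in WT and 0.87 in E85Q, and was the gene that was higher in starved E85Q (0.40, SE 0.12, adjusted p = 0.015); leaving out either starved WT sample or starved E85Q 625 ended this call.

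Among 10 other genes reported as Aft targets, 10, 8 and 9 rose in WT, E85Q and D87E (medians 1.85, 0.81 and 1.86), and all 10 were lower in starved E85Q than in starved WT (median -1.20, against -0.17 over all tested genes). With methionine 5 of these 10 were already lower in E85Q and 1 was higher (median -0.17, against 0.11 over all tested genes). For ICY2 and BNA2 the starved E85Q minus WT differences were -1.77 and -1.19. Their starvation responses differed by -0.87 and -0.29. ICY2 rose by 5.48 in WT and 4.61 in E85Q, and the vacuolar metal transporter gene COT1 by 2.71 and 1.62. ISU2, for an iron-sulfur cluster scaffold, rose by 1.28 in WT and 1.14 in D87E, while its change in E85Q was -0.07 (adjusted p = 0.38). BNA2, of the pathway from tryptophan to NAD, rose by 0.17 in WT. On centring 1 gene of this list was lower in each strain, and the counts of rises became 9, 8 and 9.

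The 21 genes of iron-using proteins, or of mRNAs reported to fall at low iron, went mostly the other way in WT and D87E. In WT 16 fell and 3 rose (median -0.75), in D87E 15 fell and 4 rose (median -0.48), and in E85Q 4 fell and 10 rose (median 0.18, close to the 0.14 of all tested genes). In starved E85Q 18 of the 21 were higher than in starved WT, where 15.7% of all tested genes were, and none was lower (median 0.93). LEU1, an iron-sulfur enzyme of leucine synthesis, fell by -4.15 in WT, -1.49 in E85Q and -3.85 in D87E. GLT1, for glutamate synthase, fell by -2.51, -0.61 and -2.36. WTM1 and OLE1, the latter for the fatty acid desaturase, rose in WT by 1.01 and 0.93, in E85Q by 1.28 and 1.05 and in D87E by 1.04 and 1.06.

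Among 13 partners, paralogs and iron-sensing genes, 6 rose and 5 fell in WT, 4 rose and 4 fell in E85Q and 6 rose and 4 fell in D87E (medians -0.04, -0.12 and -0.11, below the 0.40, 0.14 and 0.41 of all tested genes). Since 60.2% of all tested genes rose and 26.7% fell in WT, these counts say little about the list. YAP5, for the activator of CCC1, rose by 3.09, 2.62 and 3.03 in mRNA in WT, E85Q and D87E, and its TE fell by -1.52, -0.93 and -1.21 (SE 0.19). ATM1, for the mitochondrial exporter that supplies the cluster signal to Grx3 and Grx4, rose by 2.40, 1.99 and 2.29. RIM2, a mitochondrial carrier gene, fell by -1.13, -1.32 and -1.24. PSE1, for the importin that carries Aft1 into the nucleus, fell by -1.11, -1.53 and -1.21. After centring, 7 genes of this list fell in E85Q and 7 in D87E, and in starved E85Q against starved WT the count went from 2 higher and 7 lower to 5 higher and 4 lower.

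**Figure D4:**
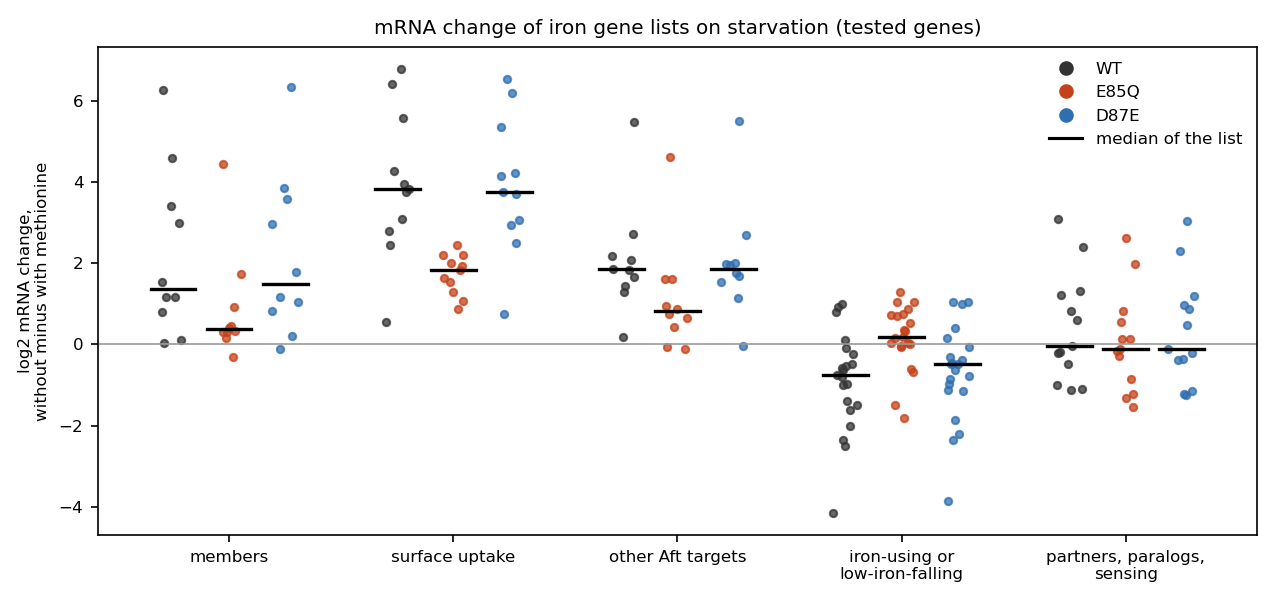
Log2 mRNA change on starvation (vertical axis) of each tested gene in the 10 members and 4 iron gene lists, for WT, E85Q and D87E, with the list median as a black bar. The median of the surface uptake list is 3.83 in WT and 1.84 in E85Q, and that of the iron-using list -0.75 in WT and 0.18 in E85Q.

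The genes whose mRNA pattern was most like that of a member were ranked by Pearson's r of log2(RPKM + 1) over the 12 RNA-seq libraries, which share their starvation treatment. For AFT1 they were FMP23 (r = 0.987), SPT10 (r = 0.984) and the reductase gene FRE1 (r = 0.981), where the median over all tested genes was 0.658. For TIS11 they were PAC11 (r = 0.998), CCC2 (r = 0.997), which encodes the copper transporter that loads Fet3, and YEA6 (r = 0.997), but 1028 genes reached an r of at least 0.95. LSO1 was matched best by OAF1 (r = 0.992), TEN1 (r = 0.987) and the metal exporter gene PCA1 (r = 0.986). The median for LSO1 over all tested genes was 0.718, and 232 genes reached an r of at least 0.95. CCC1 was matched best by SBP1 (r = 0.914), YPT31 (r = 0.914) and CDC3 (r = 0.876), with no gene at 0.95 or more. These values are descriptions of 12 libraries in 6 groups.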

How the data were processed

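The authors deposited RPKM tables for 12 RNA-seq and 12 ribosome profiling libraries, with footprints of 18 to 34 nt per the file name given in the labels. Bowtie 1.1.2, TopHat2 2.1.1 and sacCer3 are named in the submitters' processing notes, with no role given; masked positions, the scaling total and whether counting used strand are not given in the sources used here. RNA-seq libraries were stranded, and no member overlaps another gene of the reference annotation. Of 7133 entries 6304 carry values and 5716 of these matched the reference. Read depth was recovered from the steps of low RPKM values, assuming a fitted length left out of each gene. Of values of up to 20 reads, 73.6 to 79.5% in mRNA and 67.2 to 76.6% in footprints came within 0.05 of a whole read. For that reason no gene was called from counts, and reads serve only to describe depth and LSO1. The exact intervals for LSO1 come from reads summed over isolates and serve as descriptions.

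Genes with a mean of at least 5 RPKM in both assays were tested on log2(RPKM + 1), which understates changes of low genes, with limma 3.58.1 in R 4.3.3 (means of 6 groups, trended spread, two-sided, Benjamini-Hochberg over 4888 genes); Python 3.11.15 handled tables. The fit was tested on simulated data. Isolates of a genotype are the replicates (n = 2); the labels call them biological replicates. Members and lists were chosen with earlier results of these data known. Named genes are the 10 members, for each list the 2 largest and 2 smallest mRNA changes in starved WT, and for AFT1, TIS11, LSO1 and CCC1 the 3 tested genes of highest r. Isolate numbers mark the same strain in both media, per the labels. Deviations of same-numbered samples correlated at -0.183 (WT), 0.172 (E85Q) and -0.054 (D87E) in mRNA. In footprints the values were -0.024, 0.409 and 0.051, and in TE -0.021, 0.367 and -0.045, so those of E85Q were the highest. The replicate block was run as an alternative for the starvation changes and responses. Other alternatives were pseudocounts of 0.1 and 10, no filter, median-centring and leaving out each sample; list counts were added to these after the data were seen. Sequences were not used here.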

Additional observations from a re-analysis of the deposited data

Results flagged for a closer look

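The starvation response of E85Q differed from that of WT by the interaction term of the fit in 21 member results, each given as a log2 difference, E85Q minus WT. In mRNA the differences were -0.63 for AFT1, -0.75 for AFT2, -0.69 for GRX3, -1.21 for GRX4, -1.84 for TIS11, -2.08 for MRS4, -0.33 for MRS3, -1.67 for HMX1 and -4.28 for LSO1. In footprints they were -0.69 for AFT1, -0.92 for AFT2, -0.72 for GRX3, -1.75 for TIS11, -1.95 for MRS4, -0.73 for MRS3, -2.26 for HMX1 and -4.76 for LSO1, and in the other direction 1.19 for GRX4 and 0.66 for CCC1. LSO1 entered the test only through starved WT and D87E, so its 2 values are descriptions. In TE they were 2.40 for GRX4 and -0.59 for HMX1. GRX4 is the gene with a negative difference in mRNA and positive differences in footprints and TE. Its footprints changed by -1.19 in WT and 0.00 in E85Q, and its TE by -2.74 and -0.34. Limma called no member for D87E minus WT, with 0, 1 and 1 at an unadjusted p below 0.05 in mRNA, footprints and TE. Footprint depth moved with these groups: starved WT and D87E libraries held 21.4 to 27.3 M recovered reads and starved E85Q libraries 39.2 to 47.0 M, and the part of depth in these differences was not tested.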

How the results depend on the processing

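Of 108 member calls, 87 kept their direction and side of the threshold under all alternatives tried. The 108 include the calls of LSO1, which entered the test only through starved WT and D87E and whose values are descriptions. Leaving out one sample moved the number of members called from 9 to between 5 and 9 for starvation of E85Q in mRNA, from 4 to between 1 and 4 for E85Q minus WT with methionine in mRNA, from 0 to between 0 and 3 for D87E minus WT without methionine in footprints (3 without starved D87E 888) and from 0 to between 0 and 1 for starvation of E85Q in TE. The 5 came without E85Q 625 with methionine and the 1 in TE without E85Q 623 with methionine. At a pseudocount of 0.1, E85Q minus WT without methionine in TE had 2 members called in place of 4. Reversed were MRS4 TE in D87E (0.03) and MRS3 mRNA in D87E (-0.19) on centring, and LSO1 TE in WT (-0.91) at a pseudocount of 0.1; centring subtracts the shift of the median gene, and for LSO1 the cause was not tested. The replicate block ended the calls of MRS3 mRNA in D87E (0.21), the MRS3 mRNA response of E85Q minus WT (-0.33) and LSO1 TE in WT (0.70). It changed no other call of the members among the starvation changes and responses. The block was not run for the comparisons of strains within a medium. The 2 samples per group and the few LSO1 reads limit small differences.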
